A study of Mus musculus with 6 samples.

Results

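In adrenals of adult female mice, 8 genes of gamma-aminobutyric acid (GABA) metabolism and reception were followed by their symbols: Gad1 and Gad2, which make GABA, Abat, which breaks it down, Gabbr1 and Gabbr2, which form the GABA-B receptor, and Gabra2, Gabra3 and Gabre, which are subunits of GABA-A receptors. A gene was followed where the array annotation gave a probe set that symbol and no other. This held for 6 of the 8 genes, each with 1 probe set among the 25150 of the series (16769 of which carried a single symbol, for 15384 genes), and Gad2 and Gabra2 were not analysed here. The probe sets were 10472707 for Gad1 on chromosome 2, 10433445 for Abat on chromosome 16, 10445078 for Gabbr1 on chromosome 17, 10512807 for Gabbr2 on chromosome 4, and 10604961 for Gabra3 and 10604944 for Gabre on the X chromosome. The samples were 3 control arrays and 3 arrays of a group with developmental blockade of NMDA receptors, the glutamate receptors named for N-methyl-D-aspartate, called CGP below. In both groups the mice were female C57Bl/6J offspring killed at 21 weeks of age, whose adrenals had been snap frozen. Dams of the CGP group had received CGP 39551, an NMDA receptor antagonist, at 5 mg/Kg body weight by mouth from pregnancy until weaning ended, and the labels give no treatment for the control dams. Each group's RNA came from a pool of 18 mice, and the labels leave unsaid whether separate pools went onto the 3 arrays of each group, so that every p-value below measures only the spread between arrays, which may be technical.

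GABA is made from glutamate by glutamate decarboxylase, of which Gad1 encodes the larger form (GAD67), and is degraded in mitochondria by GABA transaminase, the product of Abat. It acts on GABA-A receptors, which are pentameric chloride channels, and on GABA-B receptors, which signal through G proteins and need the products of both Gabbr1 and Gabbr2. In the adrenal gland the chromaffin cells of the medulla are known to hold GABA and GABA-A receptors, where GABA acts as a local modulator of catecholamine release. The direction of the current through a GABA-A receptor depends on the chloride gradient, which the importer Slc12a2 (NKCC1) and the exporter Slc12a5 (KCC2) set.

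The tissue carried the markers of its label. Th, the first enzyme of catecholamine synthesis, read 13.04 in controls and 13.05 in CGP (log2 means), and Dbh, which makes noradrenaline, read 12.43 and 12.42. The cortical genes Star, which delivers cholesterol to steroid synthesis, and Cyp11b1, which completes corticosterone, read 13.47 and 13.56 and 13.99 and 14.06. None of these 4 passed the test, with limma adjusted p = 0.318 to 0.941. Hepatocyte and fat genes were present as well and did change. Albumin (Alb) read 13.40 in controls and 12.98 in CGP (limma adjusted p = 0.00257), and adiponectin (Adipoq) 11.01 and 11.55 (limma adjusted p = 0.000432). Over all tested probe sets the SD of the difference between arrays was 0.135 to 0.177 (log2) among controls, 0.103 to 0.128 among CGP arrays and 0.160 to 0.218 between the groups. In bulk RNA of this kind, fewer cells of a type and less RNA per cell cannot be told apart.

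The upstream sequences of 2 members are shown. Gad1 was the sole member to pass the test given below, a call lost in 7 of 13 alternative fits. Gabra3 stood apart from the other members in base composition. Both run 5′ to 3′ over the 250 bases before the RefSeq start (GRCm38.p6), at chr2:70561879-70562128 on the plus strand for Gad1 and at chrX:72656920-72657169 on the minus strand for Gabra3, for which the table holds 2 starts and the first is shown. Capitals mark matches on either strand, none of which overlap here, to the letters of a GC box, GGGCGG, or of a TATA box, TATAAA, or of the CCAAT box, whose name spells it. The cyclic AMP response element, TGACGTCA, was searched as well and had no match in the 7 windows the table holds for the chosen genes.
Gad1: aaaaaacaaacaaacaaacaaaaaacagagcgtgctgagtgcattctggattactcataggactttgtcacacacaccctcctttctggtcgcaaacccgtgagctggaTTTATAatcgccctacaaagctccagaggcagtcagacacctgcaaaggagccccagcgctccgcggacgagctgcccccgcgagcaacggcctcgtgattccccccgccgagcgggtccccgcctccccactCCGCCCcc
Gabra3: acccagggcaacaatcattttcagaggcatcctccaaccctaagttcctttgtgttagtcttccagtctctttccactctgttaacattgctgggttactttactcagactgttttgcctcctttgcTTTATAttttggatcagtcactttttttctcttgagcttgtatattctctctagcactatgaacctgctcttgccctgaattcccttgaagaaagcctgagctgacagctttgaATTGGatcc
The Gad1 window held 1 GC box and 1 TATA box, with 58.0% G or C and 17 CG dinucleotides. The Gabra3 window held 1 TATA box and 1 CCAAT box, with 42.4% G or C and 0 CG dinucleotides. Of the 32851 RefSeq windows of this length, 32.7% held a GC box, 33.9% a CCAAT box, 12.4% a TATA box and 1.55% the cyclic AMP element, and the median window had 52.4% G or C and 6 CG dinucleotides. Among the other measured genes, the table held Gabbr1 (66.0% G or C, 16 CG, 2 GC boxes), Gabbr2 (80.8%, 37 CG, 2 GC boxes) and Gabre (68.8%, 21 CG, 3 GC boxes), and no window for Abat. Its windows for Gad2 and Gabra2, which had no probe set of their own, are not described further. A match is a description of letters and not a site that the arrays measured.

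To ask which of the genes were detected, each was set against sensory receptors, which are not typical of adrenal tissue. The background of an array was the 75th percentile of its 128 probe sets for receptors of smell (olfactory, vomeronasal or trace amine), and it lay between 6.41 and 6.65 (log2). Gad1, Abat, Gabbr1, Gabra3 and Gabre exceeded it on all 6 arrays, as did 13438 of the 16034 probe sets tested below. Abat stood 3.86 to 4.08 above it, Gabbr1 2.24 to 2.56, Gabra3 2.12 to 2.64 and Gad1 1.57 to 2.19. Gabre stood only 0.04 to 0.46 above it. Gabbr2 was at most 0.02 above it on the 3 control arrays and was below it on all 3 CGP arrays (lowest difference -0.06), so that this gene could not be told from background. Against the 95th percentile of the same receptors, Gad1, Abat, Gabbr1 and Gabra3 remained above on all 6 arrays, and Gabbr2 and Gabre were above on 0.

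**Figure D1:**
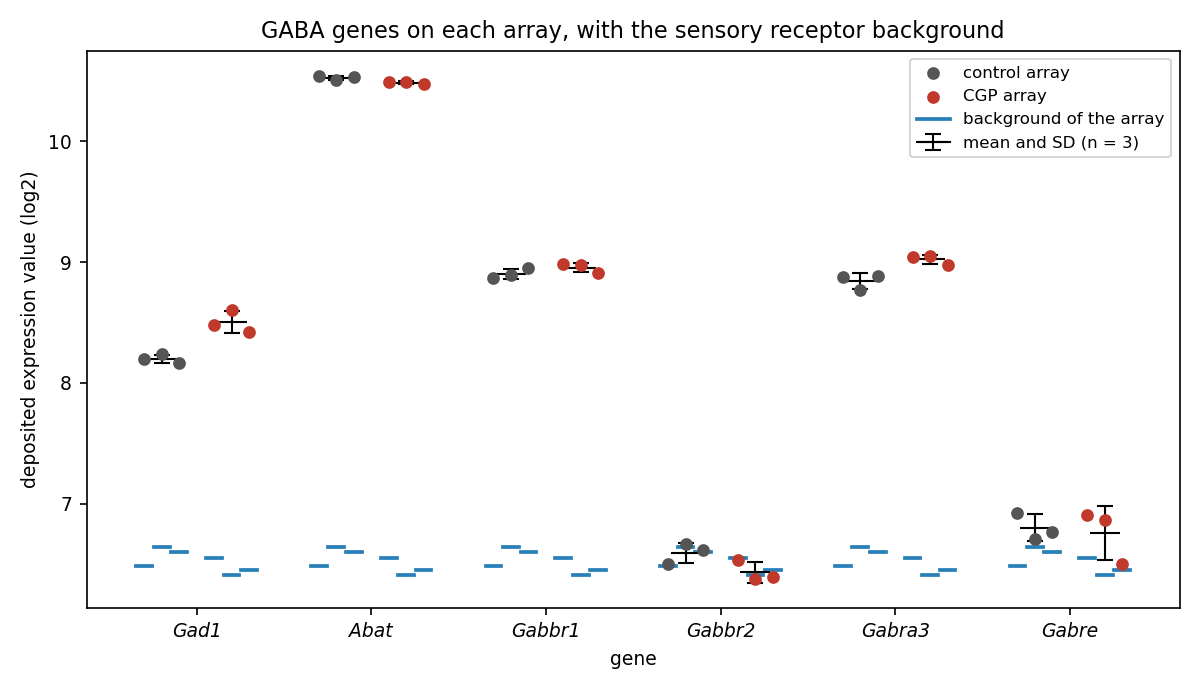
Deposited log2 values (vertical axis) by gene (horizontal axis) for the 6 measured genes, with grey points for the 3 control arrays, red points for the 3 CGP arrays, black marks for group mean and SD, and a blue bar for each array's sensory receptor background. Gad1 is higher on every CGP array, Abat, Gabbr1 and Gabra3 lie well above background with small differences, and Gabbr2 lies on it; levels of different genes are not comparable, since each has its own probes.

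Of the 6 genes, 1 rose and 5 did not pass the test in the CGP group relative to control (limma, Benjamini-Hochberg adjusted p under 0.05 over 16034 probe sets). The same test called 566 of the 16034 probe sets, or 3.53%, with 1.94% higher and 1.59% lower, a balance that turned to more lower than higher calls in 7 of the 13 alternative fits. At an unadjusted p under 0.05, 2 of the 6 were higher (Gad1 and Gabra3) and 1 was lower (Gabbr2), against 3095 of all probe sets tested, or 19.3% (10.8% higher and 8.52% lower). The same shares stand beside the counts of each list below. The median log2 fold change was 0.005 over the 6 genes and -0.01 over all tested. The groups did not overlap at 3 of the 6 genes (Gad1, Abat and Gabra3) and at 26.3% of all probe sets tested.

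Among the enzymes, the synthesising gene Gad1 rose 1.23-fold. Its values were 8.20, 8.24 and 8.17 (log2) on control arrays 1 to 3 and 8.48, 8.60 and 8.43 on CGP arrays 1 to 3. All CGP arrays lay above all control arrays, with a gap of 0.19 between the groups and the highest value on CGP array 2. The mean was 8.20 ± 0.04 in controls and 8.50 ± 0.09 in CGP (SD, n = 3 each), a difference of 0.30 (SE 0.06, 95% interval 0.17 to 0.44, limma adjusted p = 0.0320). In size this difference exceeded those of 96.5% of all probe sets tested. The direction was kept in all 13 alternative fits (0.25 to 0.35), most of which could not turn it. With groups that do not overlap, leaving out a single array or weighting the arrays cannot turn it. Changes of the filter, the probe sets tested or the variance model leave the difference itself unchanged. The call was lost without control array 2 or 3 or any CGP array (limma adjusted p = 0.0604 to 0.123). It was also lost when all probe sets of the table were tested (limma adjusted p = 0.0783), and held without control array 1 (limma adjusted p = 0.0424).

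**Figure D2:**
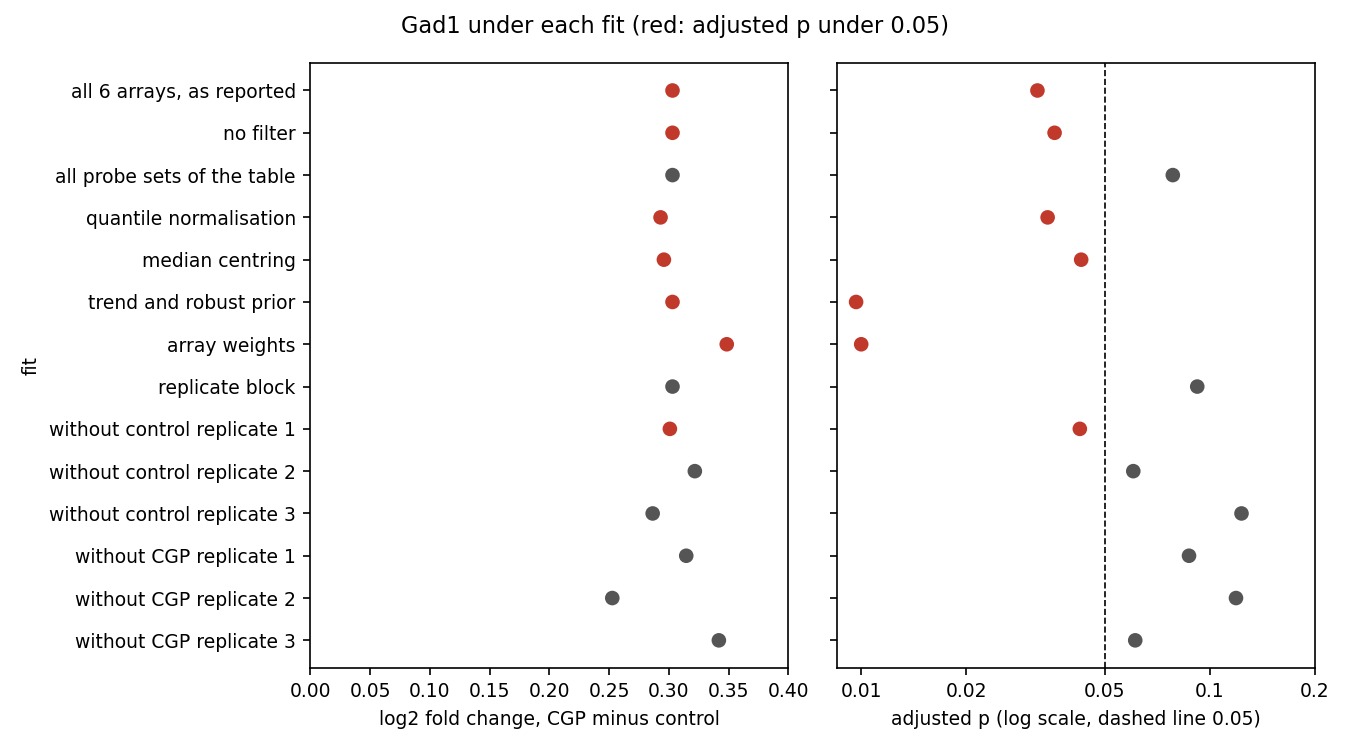
Log2 fold change of Gad1, CGP minus control (left horizontal axis), and its adjusted p (right horizontal axis, log scale, dashed line at 0.05) for each of 14 limma fits (vertical axis). The fold change stays between 0.25 and 0.35, whereas the adjusted p crosses 0.05 in 7 of the 13 alternatives to the fit reported.

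The degrading enzyme Abat was the steadiest of the 6 genes. It read 10.54, 10.51 and 10.53 on the control arrays and 10.49, 10.49 and 10.47 on the CGP arrays. The CGP values all lay below the control values, but the gap was 0.015 and the difference -0.04 (SE 0.04, limma adjusted p = 0.631). The 95% interval ran from -0.14 to 0.06, or 0.909-fold to 1.04-fold. The pooled SD within groups was 0.01 for Abat, against a median of 0.08 over all probe sets tested.

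The remaining genes of synthesis, breakdown and the pyridoxal phosphate cofactor gave no call. Of the 8 genes in this list, Gad1 and Abat included, 6 were tested through 7 probe sets, of which 1 was higher (Gad1) and 6 gave no call, with 1 lower at an unadjusted p under 0.05. Aldh9a1, an aldehyde dehydrogenase of the route to GABA from putrescine, read 10.99 and 10.98 (difference -0.01, limma adjusted p = 0.892). Aldh5a1, which oxidises the product of the transaminase to succinate, differed by 0.01 (limma adjusted p = 0.939), and this gene was named after its value was seen. Pdxp, a phosphatase of the cofactor that was likewise named after its values were seen, had 2 probe sets with differences of -0.11 and -0.19, neither of which passed. The probe set with -0.19, which is the lower one at an unadjusted p under 0.05, stood only 0.21 to 0.42 above background.

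The GABA-A receptor subunit gene Gabra3, which encodes the alpha 3 subunit, did not pass the test, although its groups did not overlap. Its values were 8.87, 8.77 and 8.88 on the control arrays and 9.04, 9.05 and 8.98 on the CGP arrays. Every CGP array was above every control array by at least 0.09. The means were 8.84 ± 0.06 and 9.02 ± 0.04 (SD, n = 3 each), a difference of 0.18 (SE 0.05, 95% interval 0.06 to 0.30, limma adjusted p = 0.111). Over the alternative fits its adjusted p lay between 0.0542 and 0.331, and the difference was positive in all 13. As for Gad1, leaving out a single array or weighting the arrays could not turn this sign. Changes of the filter, the probe sets tested or the variance model again leave the difference unchanged.

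Gabre, which encodes the epsilon subunit, gave the widest spread of the 6. It read 6.93, 6.71 and 6.77 on the control arrays and 6.91, 6.87 and 6.50 on the CGP arrays. The groups overlapped, and CGP array 3 was the lowest of the 6. The difference was -0.04 (SE 0.11, 95% interval -0.30 to 0.21, limma adjusted p = 0.860), and its sign turned without control array 1 (0.018) or CGP array 3 (0.085). Its pooled SD of 0.18 exceeded those of 96.2% of probe sets tested, and its nearness to background limits what the test can show.

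Gabre and Gabra3 lie close together on the X chromosome. In the RefSeq gene order of GRCm38.p6, Magea10 is the sole protein-coding gene between them, and Gabrq, the theta subunit gene, named here for its place, follows Gabra3. Of the 3 subunit genes of this cluster, Gabra3 was above background on 6 arrays, Gabre just above it on 6 and Gabrq below it on all 6. Each gene has its own probes, so their levels are not compared with each other.

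Of the 19 GABA-A subunit genes listed, 6 were tested, 0 were called in either direction, and 2 (Gabra3 and Gabrg3) were higher at an unadjusted p under 0.05. Gabrg3, the gamma 3 subunit gene, read 8.72, 8.60 and 8.71 on the control arrays and 8.87, 9.07 and 8.93 on the CGP arrays. Again the groups did not overlap, with a difference of 0.28 (SE 0.07, 95% interval 0.13 to 0.43, limma adjusted p = 0.0633). Of the 6 subunit genes, 4 exceeded background on all 6 arrays. The differences of the genes other than Gabra3 and Gabrg3 were all negative, between -0.15 and -0.04, but these genes lay near or under background. Gabrd and Gabre exceeded it by as little as 0.02 and 0.04, Gabrr2 was above it on 2 arrays and Gabrq on 0. Gabrd and Gabrr2 were named after their values were seen, and the shared sign is not read as a result.

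The GABA-B receptor genes were both without a call. Gabbr1, whose product binds GABA, read 8.87, 8.89 and 8.95 on the control arrays and 8.98, 8.97 and 8.91 on the CGP arrays. The groups overlapped, with CGP array 3 inside the range of the controls, and the difference was 0.05 (SE 0.05, limma adjusted p = 0.587). The 95% interval was -0.06 to 0.16, or 0.961-fold to 1.12-fold, and covers only the spread between arrays.

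Gabbr2, whose product couples the receptor to its G protein, read 6.50, 6.67 and 6.62 on the control arrays and 6.53, 6.38 and 6.40 on the CGP arrays. CGP array 1 lay within the range of the controls. The difference was -0.16 (SE 0.06, limma adjusted p = 0.230) as measured. Because the 3 CGP values lay under background, the true difference at this probe set is not measured.

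Among the 10 genes of the GABA-B receptor and its partner proteins, 7 were tested, and limma called 0 of them, with 1 (Gabbr2) lower at an unadjusted p under 0.05. Kctd12, an auxiliary subunit of the receptor, read 9.31 in both groups, with a 95% interval of -0.11 to 0.11. Of the 8 probe sets measured in this list, 4 exceeded background on all 6 arrays and 3 were under it on all 6.

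Outside the 8 chosen genes, the chloride importer Slc12a2 was the sole gene of the 6 lists to pass the test. It read 9.57, 9.60 and 9.59 on the control arrays and 9.95, 9.98 and 9.97 on the CGP arrays. The CGP arrays lay at least 0.35 above the controls, with an SD of 0.01 in controls and 0.02 in CGP. The rise was 0.38 (SE 0.04, 95% interval 0.28 to 0.48, limma adjusted p = 0.00225), or 1.30-fold, and the call held in all 13 alternative fits (adjusted p up to 0.0349). Slc12a2 carries sodium and potassium with chloride in many cell types, so its level is not specific to GABA-responsive cells. The exporter Slc12a5, named after its value was seen, differed by -0.07 (limma adjusted p = 0.609), and of the 5 genes of the chloride list 1 rose and 4 did not pass the test.

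The transporters gave no call but held the widest negative differences of the pathway. Of 7 listed genes, 5 were tested, and limma called 0, with 2 lower at an unadjusted p under 0.05. These were named after their values were seen. Slc6a12, the betaine and GABA transporter, read 7.65, 7.97 and 7.70 on the control arrays and 7.51, 7.30 and 7.15 on the CGP arrays, a difference of -0.45 (SE 0.11, limma adjusted p = 0.0737). Slc6a13, a GABA transporter of liver, kidney and meninges, read 7.89, 7.88 and 7.98 against 7.59, 7.74 and 7.38, a difference of -0.34 (SE 0.09, limma adjusted p = 0.0808). The groups did not overlap at either gene, as at 26.3% of all probe sets tested. Both genes are expressed by hepatocytes, whose markers were lower on the same arrays. Whether this bears on the differences of Slc6a12 and Slc6a13 was not tested. Slc6a6, which carries taurine and to a lesser degree GABA, read 12.1 in both groups (difference 0.01, limma adjusted p = 0.961). The vesicular transporter Slc32a1, also named after its value was seen, was above background on 1 array of each group.

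Genes of receptor clustering and traffic gave no call. Of 16 listed genes, 15 were tested through 16 probe sets, and limma called 0 of these, with 3 higher (Nsf, Trak2 and Gphn) and 1 lower (Lhfpl4) at an unadjusted p under 0.05, named after their values were seen. Gabarap, a linker of the gamma 2 subunit to microtubules that also serves autophagy, read 13.2 in both groups, with a difference of 0.02 (95% interval -0.09 to 0.12). Differences in this list ran from -0.17 to 0.17. In all 6 lists together, 46 probe sets of 44 genes were tested, with a median of -0.04. Of these, limma called 2 higher and 0 lower, beside 1.94% higher and 1.59% lower among all probe sets tested. At an unadjusted p under 0.05, 7 of the 46 were higher and 5 were lower, beside the 10.8% and 8.52% of all probe sets tested.

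**Figure D3:**
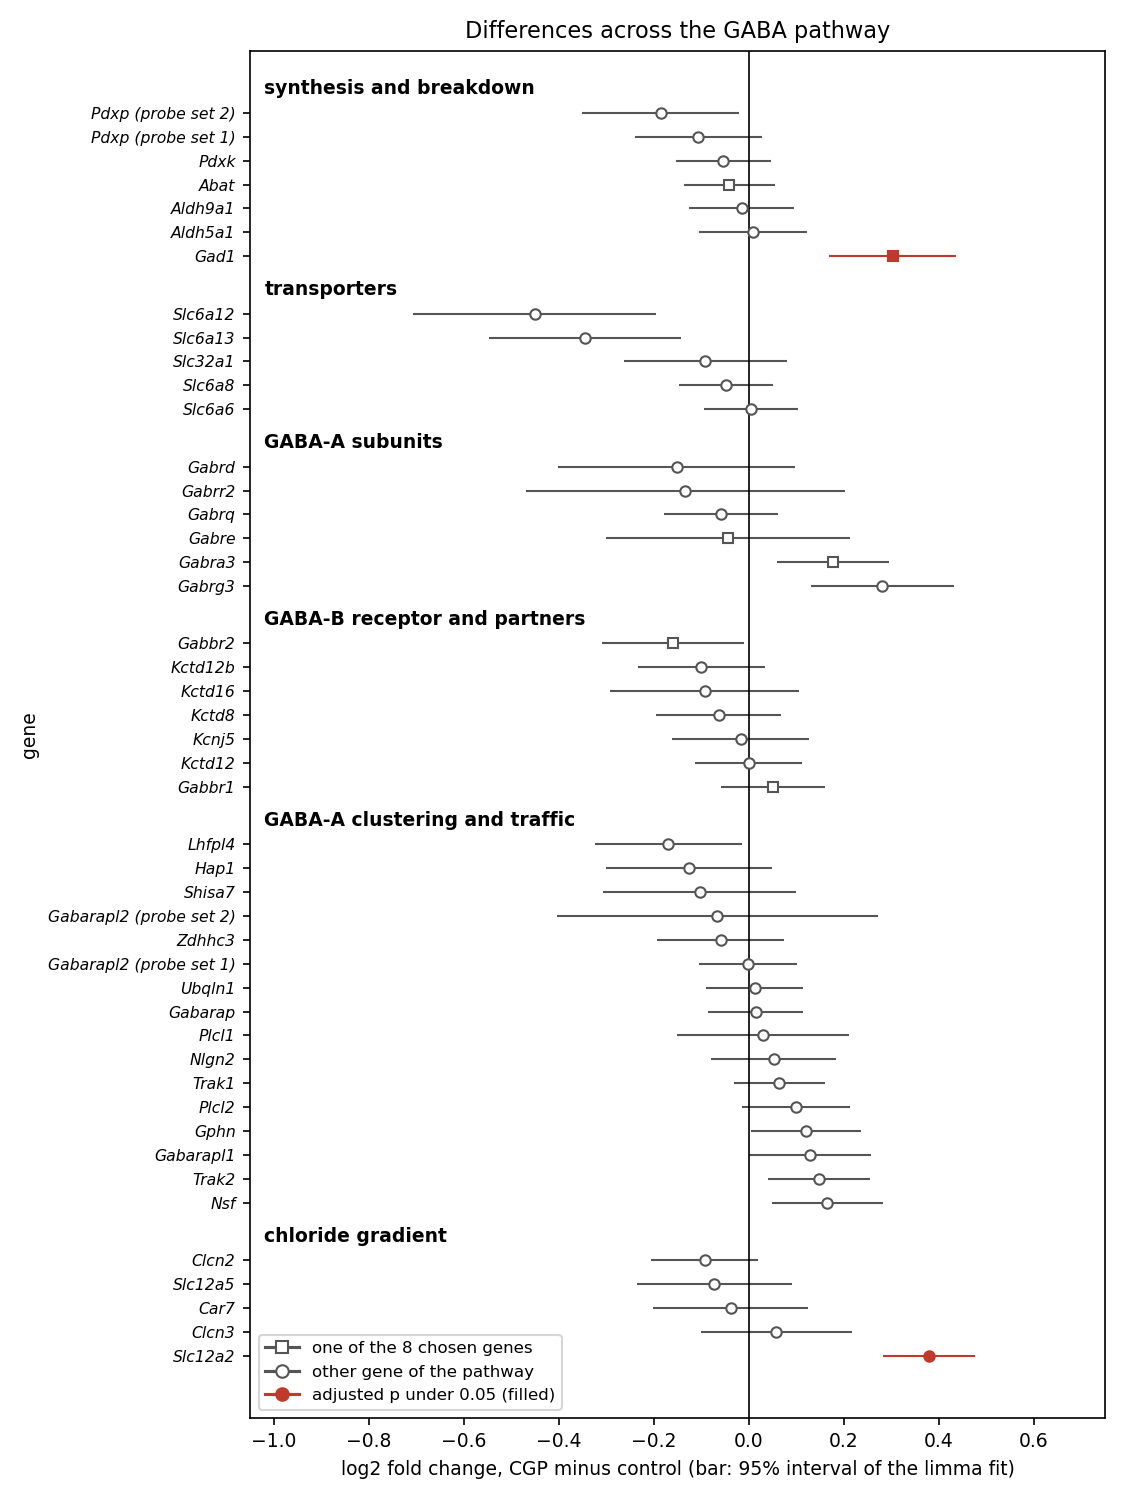
Log2 fold change, CGP minus control (horizontal axis), with its 95% interval for each of the 46 tested probe sets of the 6 GABA lists (vertical axis), as squares for the chosen genes and circles for the others, filled red where the adjusted p was under 0.05. Gad1 (0.30) and Slc12a2 (0.38) are the filled points, and Slc6a12 (-0.45) and Slc6a13 (-0.34) lie farthest to the left without passing the test.

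Markers of cell types that an adrenal sample can hold were measured beside these genes. Of all probe sets tested, limma called 3.53%, and 19.3% had an unadjusted p under 0.05. In the chromaffin list, limma called 0 of 18 genes, with 1 higher and 3 lower at an unadjusted p under 0.05, and its summed signal (log2 of the sum over the list) was 15.75 to 15.77 in controls and 15.73 to 15.76 in CGP. In the cortex list 1 of 12 genes was higher, with 2 higher and 1 lower at an unadjusted p under 0.05. The summed signal of this list was 16.60 to 16.66 in controls and 16.68 to 16.73 in CGP. The gene called was Cyp11b2, aldosterone synthase, named after its value was seen. It read 11.91 in controls and 12.41 in CGP (difference 0.50, SE 0.05, limma adjusted p = 0.00144). In the adipocyte list 14 of 17 genes were higher and 0 were lower, with a summed signal of 15.2 to 15.3 in controls and 15.7 in CGP. In the hepatocyte list 25 of 26 probe sets were lower and 0 were higher, with a summed signal of 15.5 in controls and 14.8 in CGP. Of the measured probe sets, 18 of 18 in the chromaffin list, 17 of 18 in the adipocyte list and 23 of 27 in the hepatocyte list exceeded background on all 6 arrays. Lists of neurons (12 tested) and endothelium (12 tested) had 0 calls by limma. At an unadjusted p under 0.05, the neuron list had 1 higher and 3 lower, and the endothelium list 1 higher. The list of Schwann and satellite cells (9 tested) had 2 higher (Mbp, a myelin protein, and Mpzl2) and 1 lower (Erbb3, the neuregulin receptor), named after their values were seen. The part of these cells in the differences of Gad1, Gabra3, Gabrg3, Slc12a2, Slc6a12 and Slc6a13 was not tested.

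**Figure D4:**
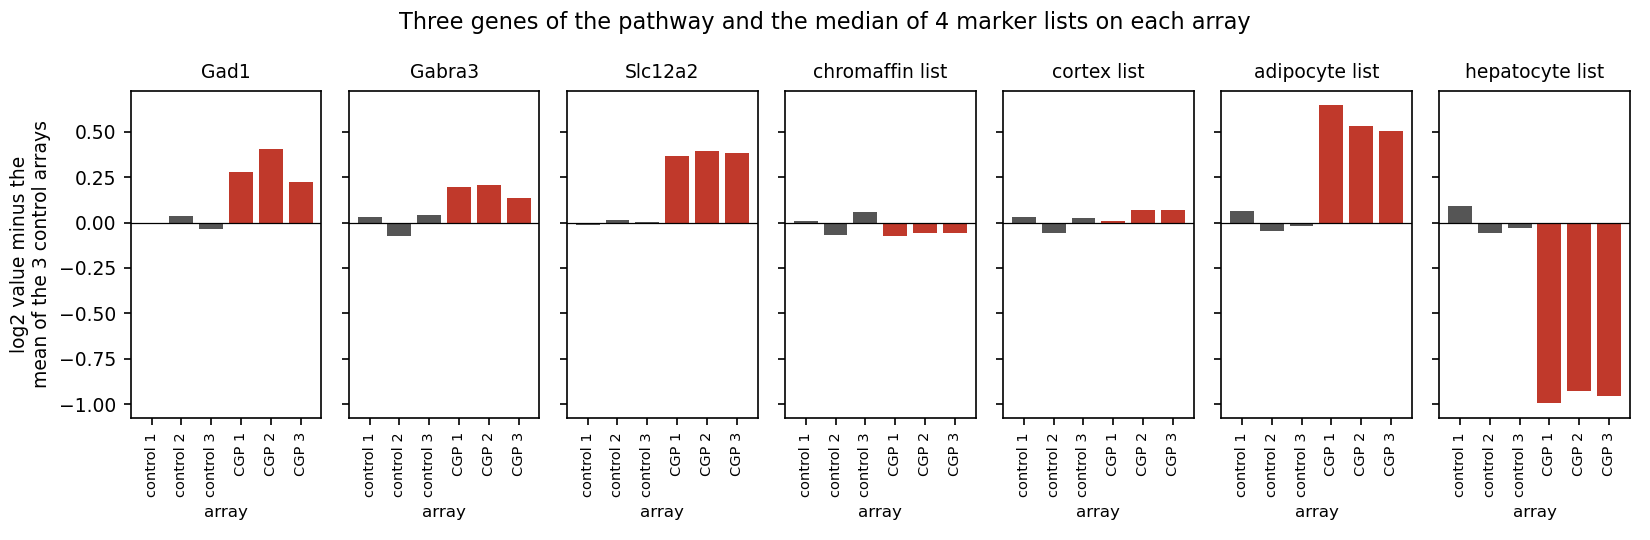
Log2 value minus the mean of the 3 control arrays (vertical axis) on each array (horizontal axis; control grey, CGP red) for Gad1, Gabra3 and Slc12a2 and for the median of the chromaffin, cortex, adipocyte and hepatocyte lists. Gad1, Gabra3, Slc12a2 and the adipocyte median are higher on all 3 CGP arrays, the hepatocyte median falls from between 9.81 and 9.96 to between 8.88 and 8.94, and the chromaffin median (9.60 to 9.73 against 9.60 to 9.61) and cortex median (12.66 to 12.75 against 12.73 to 12.79) move little.

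Across the 6 arrays, the genes whose profiles were most like that of Gad1 were Mgll, a lipase of monoacylglycerols (Pearson r = 0.995), Rab22a, a GTPase of endosomes (r = 0.994), and Cast, the inhibitor of calpain (r = 0.993). None of these 3 passed the test by limma (adjusted p = 0.0800, 0.461 and 0.0665), and 409 probe sets, or 2.55% of those tested, had an r over 0.9 with Gad1. For Abat the closest were Mad2l1bp (r = 0.995), 0610010K14Rik (r = 0.994) and Snora7a (r = 0.992), with 438 probe sets over 0.9. Over 6 arrays of pooled RNA such values are a description only.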

How the data were processed

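Adrenal RNA was measured on 6 Affymetrix whole-transcript arrays, 3 per group, grouped and numbered by sample title. The authors deposited log2 expression values for 25150 probe sets, made with RMA (background correction, quantile normalisation and probe summary) and Partek per the submitters' processing notes. Software versions and the genome build were not given in the sources used here. Quantile normalisation gives the arrays near-equal distributions, so differences are relative to the other probe sets, and RMA background correction compresses folds of dim genes. Arrays have no read depth, and their number limits the precision.

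Names came from the array's platform annotation (16769 with 1 symbol, 1031 with several, 7350 with none). The test took those with 1 symbol that reached 6 (log2) on 3 or more arrays (16034, of 14727 genes) with limma 3.58.1 in R 4.3.3 (lmFit, eBayes, two-sided, no covariate), adjusted over all tested by Benjamini and Hochberg. All 6 measured members passed this filter. SE is the moderated standard error. The fit was run on simulated data with independent noise for each probe set and array, as a check of the code. This says nothing on deviations that whole arrays share. Alternatives changed the filter, the probe sets, the normalisation, the variance model and the arrays used, and added array weights or the array number as a block. All 8 genes were named whatever their values, with, for each GABA list, other genes that passed the test and the gene with the highest mean value, and the 3 genes most correlated with Gad1 and with Abat. The members and lists were chosen with earlier results of these data known. RefSeq tables (GRCm38.p6) gave gene order and the promoter windows, matched by symbol for 7 of the 8 genes.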

Additional observations from a re-analysis of the deposited data

How the results depend on the processing

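The rise of Gad1 kept its direction in all 13 alternative fits, and its call in 6 of them. Its groups did not overlap, so that leaving out a single array or weighting the arrays could not turn the direction. For every gene, changing the filter, the probe sets tested or the variance model leaves the difference itself unchanged. Adding the array number as a block does so too. These fits therefore could not turn any direction. The call was lost with all probe sets of the table tested (difference 0.30, limma adjusted p = 0.0783), where 0 of the 6 genes passed and 23496 probe sets shared the adjustment, and in 5 of the 6 fits that left out an array (0.25 to 0.34 over the 6, with 0 to 1 of the genes called). With the array number as a replicate block the difference was 0.30 (limma adjusted p = 0.0921), 0 of the 6 genes passed, and 224 probe sets were called in all. Arrays of the same number did not deviate together (correlations of -0.36, -0.17 and -0.12 over tested probe sets), so they share only a number. Gabre turned sign when single arrays were left out (-0.12 to 0.085, with 0.018 without control array 1 and 0.085 without CGP array 3). Abat, Gabbr1, Gabbr2 and Gabra3 kept their direction and stayed without a call in all 13 fits, and Slc12a2 kept its call in all 13. For Abat and Gabra3, whose groups did not overlap, leaving out a single array or weighting the arrays could not turn the direction either. The count of 566 called probe sets became 1261 with a variance trend and robust prior, 1665 with array weights and 236 to 1099 without single arrays, and the cause was not tested. Of the 566, 311 were higher and 255 lower, but lower calls outnumbered higher ones with all probe sets (164 higher, 218 lower), with the replicate block (68 and 156), without control array 2 (157 and 207) or 3 (114 and 155), and without CGP array 1 (151 and 169), 2 (79 and 157) or 3 (88 and 149). The number of genes above background was 5, and 4 to 6 under the alternatives. The 3 arrays of each group limit all of these tests, and Gabbr2 and Gabre are limited by background.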
